A study of Mus musculus with 2 samples.

Results

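Branched-chain amino acid breakdown was described through 10 named genes in mouse calf muscle: Bcat2, Bckdha, Bckdhb, Dbt, Bckdk, Ppm1k, Mccc1, Mccc2, Ivd and Hibadh. They were chosen by name as enzymes or regulators of this pathway, out of 55536 annotated genes. Total RNA of the gastrocnemius, a large muscle of the calf, came from 2 untreated male B6CASTF1/J mice of 8 to 10 months, with 1 library per animal. This strain is the hybrid of the C57BL/6J and CAST/EiJ strains, and every gene value sums the alleles of both parents. The labels number the animals 2 and 4 under a shared donor identifier, and they are called replicate 1 and replicate 2 here. There is 1 group, so the data give levels in this muscle and a comparison of its 2 libraries.

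Leucine, isoleucine and valine are the branched-chain amino acids, and skeletal muscle is known as a main site of their first breakdown step. A mitochondrial aminotransferase moves their amino group to 2-oxoglutarate, which is reversible. The branched-chain ketoacid dehydrogenase complex then removes a carboxyl group irreversibly, a kinase switches that complex off by phosphorylation, and a phosphatase switches it on. Later enzymes differ by amino acid: leucine ends as acetyl-CoA and acetoacetate, valine as propionyl-CoA, and isoleucine as both acetyl-CoA and propionyl-CoA.

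The libraries held 36792619 and 37752252 estimated counts over genes, and the 10 genes held 14027 and 16592 of them. Of the tissue markers, all 8 fast fibre genes were abundant (summed level 66546 and 72602 TPM), and all 7 liver genes were under 1 TPM in both animals, 2 of them at 0. TPM is a relative level scaled for transcript length and library, and allows levels of different genes to be compared. The 2 libraries were further apart than counting alone allows, with a chi-square of 103 per degree of freedom over tested genes. Genes with very high counts weigh most in this figure, so it does not describe a typical gene. Gm42418, an annotated gene that overlaps ribosomal RNA sequence, is among them. It held 735980 counts (2.00%) in replicate 1 and 62919 (0.167%) in replicate 2. The ratios below use edgeR's trimmed mean (TMM) scaling.

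All 10 genes were detected, and they fell into an abundant and a scarcer group. Bckdk, the kinase, led at 78.1 ± 1.93 TPM (SD, n = 2, as for every level below). Ivd, Bckdha, Hibadh and Bcat2 followed between 36.6 and 51.0 TPM. Bckdhb, Mccc2, Mccc1, Dbt and Ppm1k lay between 6.46 and 16.2 TPM. The highest mean was 12.1 times the lowest. For scale, the median over the 9815 nuclear protein-coding genes with at least 1 TPM in both animals was 8.12 TPM, and Ppm1k, the phosphatase, was the only one of the 10 below it. Down this order, the animals of neighbouring genes overlapped for Ivd with Bckdha and for Mccc2 with Mccc1, so these neighbours did not differ beyond their spread. The other 7 of 9 neighbouring pairs did not overlap, although Bckdha in replicate 1 (48.02 TPM) lay just above Hibadh in replicate 2 (47.92 TPM).

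**Figure D1:**
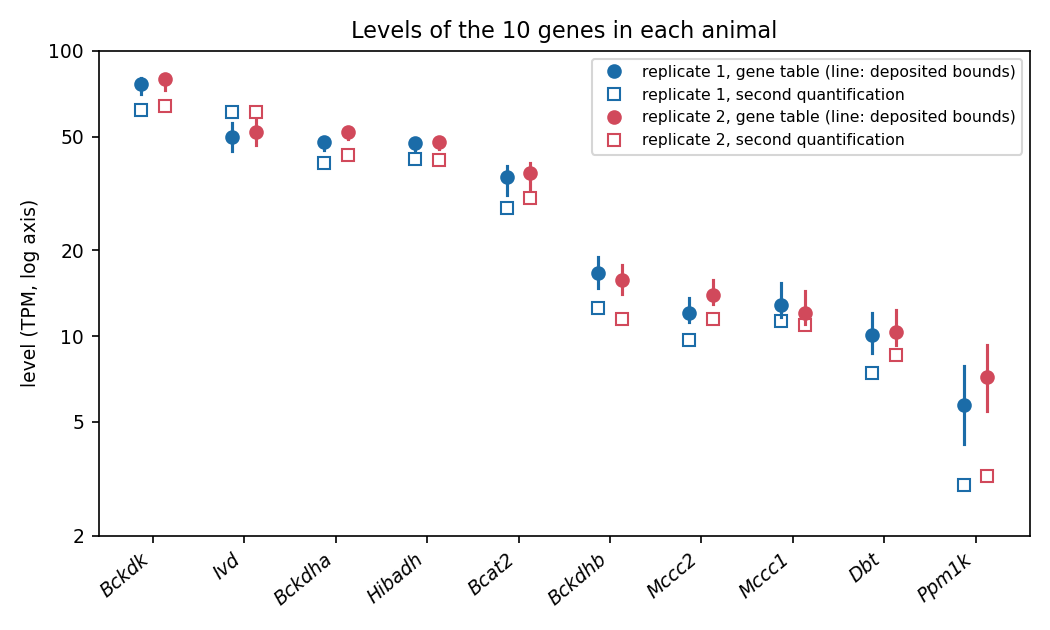
Level of each gene in TPM (log axis) in replicate 1 (blue) and replicate 2 (red). Filled circles are the gene table with the authors' deposited bounds as lines, and open squares are the second quantification; Bckdk is highest and Ppm1k lowest in both, and Ivd alone is higher in the second.

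Between the animals, the 10 genes differed little. In an exact two-sided conditional binomial test on counts, adjusted by the Benjamini-Hochberg method over 14101 genes at 0.05, 3 of 10 were called and all 3 were higher in replicate 2. Under TMM scaling 21.6% of all tested genes were called, 10.7% with replicate 2 higher and 10.8% with replicate 1 higher. The count of 3 of 10 is near that background. With spike-in scaling none of these 3 was called and 2 others, Bckdk and Mccc1, were called higher in replicate 1. That scaling called 35.6% of all tested genes. Total counts called 8 of 10, beside 30.9% of all tested genes. Ivd had a log2 ratio (replicate 2 over replicate 1) of 0.14 (95% Clopper-Pearson interval 0.06 to 0.22, exact binomial test, adjusted p = 0.0030). Bckdha had a log2 ratio of 0.15 (0.06 to 0.23, adjusted p = 0.0036 in the same test), and Mccc2 one of 0.23 (0.07 to 0.39, adjusted p = 0.026). These intervals cover counting error only, and each difference is between 2 libraries with no replicate check.

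No gene reached an absolute log2 ratio of 0.25, a size that 20.4% of 9516 genes averaging at least 100 counts passed. None reached 1, which 0.925% of those genes did. Under TMM scaling 8 of 10 ratios lay above 0, with Bckdhb (−0.03) and Mccc1 (−0.09) below it, but all 10 lay above 0 under scaling to total counts and only Ppm1k and Mccc2 did under scaling to spike-ins. The median over the 10 genes was 0.11, beside 0.0046 over all tested genes. Total counts and spike-ins moved the median of all tested genes to 0.118 and −0.145, and the median of the 10 genes to 0.22 and −0.04. With an assumed biological coefficient of variation of 0.1 in edgeR's exact test, none of the 10 genes was called (2.06% of all genes were). In the binomial test under TMM scaling, 4 of the 10 genes had an unadjusted p under 0.05. At least 21.6% of all tested genes did so too, since that share passed after adjustment.

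Other marker groups moved between the same libraries. All 8 slow fibre markers were called higher in replicate 1, with a median log2 ratio of −0.59 and summed levels of 1742 and 1160 TPM, and all 8 fast fibre markers were called higher in replicate 2 (median 0.12, but −0.03 with spike-in scaling). Of 12 mitochondrial content genes, 7 were called higher in replicate 2 and none in replicate 1, with a median of 0.06 and summed levels of 4915 and 5038 TPM, while spike-in scaling called all 12 higher in replicate 1. Adipocyte markers (5 of 7) and endothelial markers (4 of 7) were also called higher in replicate 2, at summed levels of 78.2 and 95.6 TPM and of 94.9 and 121.5 TPM, as were 3 of 5 tested erythroid markers. With spike-in scaling these counts were 2, 1 and 0. Their part in the ratios of the 10 genes was not tested. In whole muscle, fewer cells of a type and less RNA per cell cannot be told apart.

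**Figure D2:**
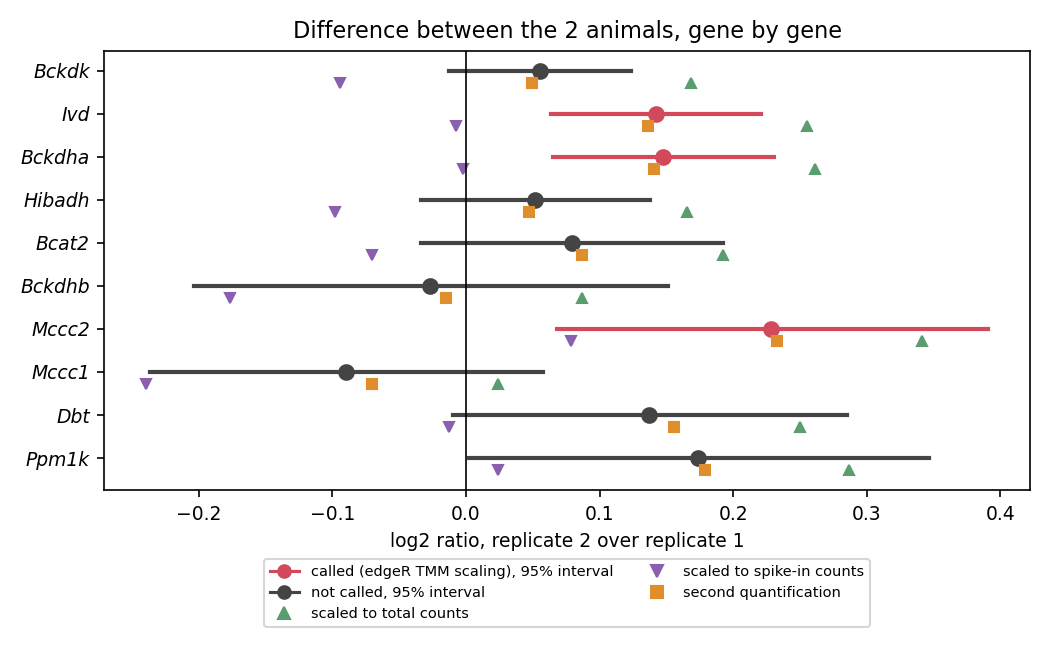
Log2 ratio of replicate 2 over replicate 1 for each gene, with circles and 95% counting intervals under TMM scaling and smaller marks below them for other settings. Ivd, Bckdha and Mccc2 (red) were called; scaling to total counts moves all 10 to the right of 0 and scaling to spike-ins moves 8 to its left.

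Bcat2 (ENSMUSG00000030826.19, chr7:45570153-45589711, plus strand, mm10) encodes the mitochondrial branched-chain aminotransferase, which does the transamination step. It measured 36.0 TPM in replicate 1 and 37.1 TPM in replicate 2, from 1182 and 1386 counts, and its log2 ratio of 0.08 was not called (exact binomial test, adjusted p = 0.36). Bcat1, its cytosolic paralog, was near the limit of detection with 15 and 8 counts, or 0.51 and 0.18 TPM. Bcat2 RNA was therefore 70.6 times Bcat1 in replicate 1 and 206.4 times in replicate 2, a spread that rests on those few Bcat1 counts.

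Which end of the Bcat2 RNA was present depended on the quantification. Bcat2-201 and Bcat2-208 are coding transcripts whose first bases lie 2716 bases apart; the annotated coding sequence of Bcat2-208 starts later, is 40 codons shorter and is otherwise the end of that of Bcat2-201. Their first coding bases are shown because they carry this difference, with the start codon in capitals (5′ to 3′, plus strand, from the GENCODE M21 transcripts, mm10). The first window spans chr7:45570376-45575436 across an intron and the second chr7:45575820-45575849.
Bcat2-201: ATGgctgcagccacactaggacaggtctgg
Bcat2-208: ATGaccaaagaaccacagaagaagccagcc

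In the first transcript table, transcripts from the upstream start (Bcat2-201, Bcat2-202 and Bcat2-206) held 52.9% of the gene's TPM in replicate 1 and 47.5% in replicate 2. In the second they held 16.6% and 12.1%, and Bcat2-208 alone held 69.5% and 66.6%. The first table's bounds for Bcat2-208 were as wide as 0.40 to 11.8 TPM in replicate 1, so the tables do not settle the share of either start. Bcat2-202 also lacks 15 bases, or 5 codons, of Bcat2-201, at chr7:45585111-45585125. The bases in capitals are those missing.
Bcat2-201: cctgccaGACTTTGACAAGCAGgagctgt
Bcat2-202: cctgccagagctgt
Bcat2-202 held 26.3% and 29.8% of the gene's TPM in the first table and 0 in the second, so presence of the short form rests on the first quantification.

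The ketoacid dehydrogenase complex is built from E1, a decarboxylase of alpha and beta subunits, E2, a transacylase that forms the core, and E3, shared with other complexes. Its RNA levels were uneven. Bckdha, E1 alpha (ENSMUSG00000060376.7, chr7:25629946-25658981, minus strand), measured 48.0 and 52.1 TPM in replicates 1 and 2. Bckdhb, E1 beta (ENSMUSG00000032263.14, chr9:83925145-84124240, plus strand), measured 16.6 and 15.7 TPM. Dbt, E2 (ENSMUSG00000000340.10, chr3:116513070-116549981, plus strand), measured 10.1 and 10.3 TPM. E1 alpha was thus the most abundant of the 3 RNAs in both animals and E2 the least, with no overlap. Dld, E3, measured 71.9 ± 5.08 TPM, above all of them.

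Bckdha RNA was 2.89 times Bckdhb in replicate 1 and 3.31 times in replicate 2, although the subunits pair in E1. It was 4.77 and 5.05 times Dbt. In the second quantification these means were 3.49 and 5.24, and over protein-coding transcripts alone 3.72 and 5.80, so the order held in each. The log2 ratio between animals was not called for Bckdhb (−0.03, exact binomial test, adjusted p = 0.90) or Dbt (0.14, adjusted p = 0.20).

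Each of these subunits was scarcer than its counterpart in the pyruvate dehydrogenase complex, the related complex that feeds pyruvate into the citric acid cycle. Bckdha measured 0.22 ± 0.021 of Pdha1, Bckdhb 0.15 ± 0.0014 of Pdhb and Dbt 0.12 ± 0.0098 of Dlat. For the kinases the answer depended on the paralog and, for Pdk4, on the animal. Bckdk measured 0.38 ± 0.0080 of Pdk2, while Pdk1 (28.9 ± 0.30 TPM) and Pdk3 (0.53 ± 0.014 TPM) were below Bckdk in both animals. Pdk4 was above Bckdk in replicate 1 (302 against 76.7 TPM) and below it in replicate 2 (76.7 against 79.5 TPM). Dbt to Dlat was the least certain of these ratios, at 0.079 in the second quantification and 0.18 over protein-coding transcripts.

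Transcript structure was simple for Bckdha, whose Bckdha-201 held 97.7% and 97.9% of its TPM. Bckdha shares 1171 exon bases with B3gnt8 on the opposite strand, which held 11 and 24 counts against 2144 and 2636 for Bckdha; how strand was used in counting was not given in the sources used here. Dbt-201 held 82.1% and 87.4% of Dbt. Bckdhb-201 held 77.5% and 69.8% of Bckdhb in the first table, and Bckdhb-206, which is the same RNA with 5 more bases at its start, held 0 there. In the second table Bckdhb-206 held 0.459% in replicate 1 and 44.6% in replicate 2. The pair cannot be separated by reads inside them, yet the annotation gives Bckdhb-201 a coding sequence 68 codons shorter. Together they held 73.7 ± 5.41% in the first table and 97.8 ± 3.14% in the second.

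The regulators of the complex stood at opposite ends of the order. Bckdk (ENSMUSG00000030802.14, chr7:127904082-127910221, plus strand), the inactivating kinase, measured 76.7 and 79.5 TPM from 3249 and 3747 counts. Ppm1k (ENSMUSG00000037826.5, chr6:57506502-57535468, minus strand), the activating phosphatase, measured 5.75 and 7.16 TPM from 500 and 626 counts. Kinase RNA was thus 13.3 times phosphatase RNA in replicate 1 and 11.1 times in replicate 2. It was 20.7 and 19.8 times in the second quantification and 16.7 and 17.7 times over protein-coding transcripts. Neither gene was called between animals: Bckdk had a log2 ratio of 0.06 (exact binomial test, adjusted p = 0.28) and Ppm1k one of 0.17 (adjusted p = 0.15).

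Between the animals, the Ppm1k level in TPM differed mainly by a short transcript with few counts. Ppm1k-201, coding and 5560 bases long, held 485 and 611 counts, and the 264-base processed transcript Ppm1k-202 held 6.64 and 15.1. Scaled by length, Ppm1k-202 made up 28.0% and 45.2% of the gene's TPM, and in the second quantification it was listed at 0. Its bounds overlapped, at 0.11 to 3.475 TPM in replicate 1 and 1.53 to 5.31 TPM in replicate 2. The coding transcripts alone gave 4.15 and 3.92 TPM, nearer than the gene total to the 3.002 and 3.23 TPM of the second quantification. Ppm1k-201 itself was higher in replicate 2, at 3.53 and 3.92 TPM, and at 2.87 and 3.146 TPM in the second quantification. The coding sum was lower there because Ppm1k-203, also coding, held 8.4 counts (0.62 TPM) in replicate 1 and 0 in replicate 2.

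Bckdk RNA ended mostly in a form other than the longest one. Bckdk-202 held 63.8% and 60.3% of the gene's TPM, and 68.7% and 64.2% in the second quantification. It keeps the 87-base intron chr7:127908080-127908166, which Bckdk-201 removes, and its annotated coding sequence is 47 codons shorter. The 2 forms also differ at both ends: Bckdk-201 spans chr7:127904082-127910221 and Bckdk-202 the shorter chr7:127904762-127908608. The share of Bckdk-202 is therefore not a measure of how much RNA keeps this intron. Bckdk-201 held 13.7% and 13.8%. The bases after the exon end are in capitals, spliced in Bckdk-201 (chr7:127908065-127908181) and read through in Bckdk-202 (chr7:127908065-127908094).
Bckdk-201: aggacctatgcatggCTTTGGCTTCGGGTT
Bckdk-202: aggacctatgcatggGTAAGGCCCCACCTT
Both tables put Bckdk-202 first in each animal. These libraries hold total RNA, in which a kept intron may also be RNA not yet fully spliced, and the 2 cannot be told apart here.

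The leucine branch begins with Ivd, isovaleryl-CoA dehydrogenase, and continues with 3-methylcrotonyl-CoA carboxylase, made of Mccc1, the biotin-carrying alpha subunit, and Mccc2, the beta subunit. Ivd (ENSMUSG00000027332.11, chr2:118861954-118882909, plus strand) measured 49.9 and 52.0 TPM. Mccc1 (ENSMUSG00000027709.9, chr3:35959312-36000678, minus strand) measured 12.9 and 12.0 TPM from 743 and 775 counts. Mccc2 (ENSMUSG00000021646.9, chr13:99948530-100015639, minus strand) measured 12.1 and 13.98 TPM from 559 and 727 counts. The carboxylase subunits were thus near equal, with Mccc1 at 1.07 times Mccc2 in replicate 1 and 0.86 times in replicate 2. Over protein-coding transcripts the ratio was 0.74 and 0.62, with Mccc2 higher in both animals.

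The Mccc subunits differed in their share of coding RNA. Mccc2 had 96.9 ± 0.54% of its TPM on protein-coding transcripts. Mccc1 had 68.3 ± 2.26%, with 18.1 ± 0.99% on transcripts annotated for nonsense-mediated decay, a route that degrades RNA with an early stop, and 13.6 ± 1.26% on transcripts with a retained intron. The second quantification gave Mccc1 65.7% coding, 16.9% decay and 17.5% retained intron, so Mccc1 kept all 3 classes in both. Mccc1-205, with 172 and 133 counts, was the main decay transcript.

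For Ivd, fewer than 1 in 2 RNA molecules by TPM were assigned to its coding transcript. Ivd-201, the only coding transcript, held 41.9% and 44.8% of the gene's TPM, and 24.8% and 27.4% in the second quantification. Ivd-206 and Ivd-207, processed transcripts with no annotated coding sequence, start inside the gene and held 51.8% and 48.9%, or 60.9% and 55.9% in the second. Because they are short, they took 480 and 531 of the gene's 2391 and 2928 counts, and Ivd-201 took 78.4% and 80.9%. The level of coding Ivd was 20.9 and 23.3 TPM, lower than that of the whole gene and below Bcat2.

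Each internal transcript has a first exon of its own, joined to an exon that Ivd-201 also uses. The junctions are shown because reads across them would mark these RNAs; the end of the upstream exon is in capitals and the shared exon follows. The first pair ends at chromosome 2 position 118872899 and the second at 118876330.
Ivd-206: TATCTCAAAAAACAActcatcagtggtgag
Ivd-201: AAATACCTTCCCAAGctcatcagtggtgag
Ivd-207: CAGCCTTGAAAGCAGccgctaacgtcctga
Ivd-201: ACTGCAAGGTTCCTGccgctaacgtcctga
The deposited tables give no counts of reads over a junction, so the shares are model estimates. The deposited bounds for Ivd-207 were 11.6 to 17.1 TPM in replicate 1 and 11.2 to 16.7 TPM in replicate 2.

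In the valine branch, Hibadh (ENSMUSG00000029776.11, chr6:52546228-52640389, minus strand) encodes 3-hydroxyisobutyrate dehydrogenase. It measured 47.5 and 47.9 TPM from 2073 and 2385 counts and had the smallest SD of the abundant genes, 0.33 TPM. Hibadh-201 held 98.9% and 99.3% of it, and the log2 ratio of 0.05 was not called (exact binomial test, adjusted p = 0.46).

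Over all members, 57 annotated transcripts fell into 25 protein-coding, 16 retained intron, 6 nonsense-mediated decay and 10 processed transcripts. The median coding share of TPM was 84.0% in the first table and 96.8% in the second. Of the 10 genes, 8 had the same most abundant transcript in both tables, the exceptions being Bcat2 (Bcat2-202 and Bcat2-208) and Ivd (Ivd-201 and Ivd-207). In the first table, the same one led in both animals for 9 genes, the exception being Bcat2. On their own strand, between 94.2% (Bckdhb) and 100% (Bckdha and Mccc2) of 31-base words were absent from other genes' transcripts. On the opposite strand this was 45.4% for Bckdha and 85.1% for Bcat2, and 94.1% or more for the other 8. Dbt contains the processed pseudogene Gm4596 on the opposite strand, without shared exon bases.

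**Figure D3:**
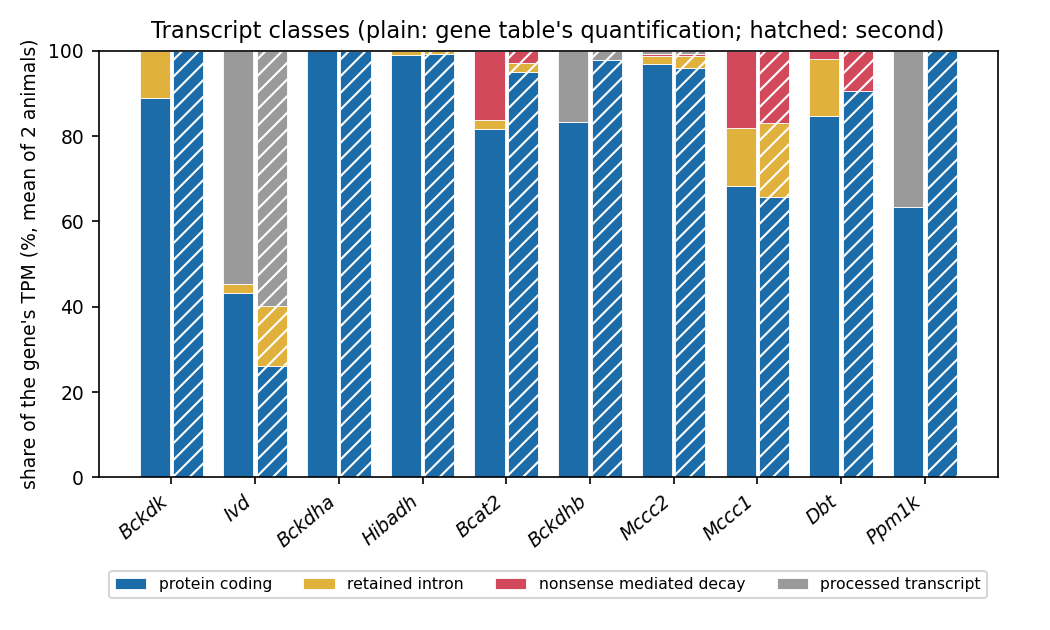
Share of each gene's TPM on each annotated transcript class, as the mean of 2 animals, for the first quantification (plain bars) and the second (hatched). Ivd has the lowest coding share in both (43.3% and 26.1%), Mccc1 keeps 3 classes in both, and the processed share of Ppm1k appears in the first only.

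Beyond the 10 genes, lists of 88 further genes around the pathway held 85 tested genes. Of these, 14 were called with replicate 2 higher and 17 with replicate 1 higher, and 54 were not called, and their median log2 ratio was −0.0064. Over all tested genes 10.7% and 10.8% were called in these directions, or 21.6% in either. Scaling moved this split: total counts gave 39 and 8, and spike-ins 6 and 47. Of all tested genes, 30.9% were called with total counts and 35.6% with spike-ins.

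The counts for each list below are under TMM scaling and move with it in the same way. Each is to be read beside the 21.6% of all tested genes called under that scaling. In the leucine arm 0 of 5 tested genes were called in the binomial test, 2 with total counts and 4 with spike-ins; Oxct1, which activates ketone bodies, was its most abundant gene at 100.9 ± 6.47 TPM. Auh, the hydratase after the carboxylase, measured 35.8 ± 1.34 TPM. In the valine arm 1 of 5 was called, Abat, named here after its value was seen, at 33 and 77 counts. Acad8 (14.8 ± 0.092 TPM), Hibch (15.4 ± 0.52 TPM) and Aldh6a1 (49.97 ± 0.40 TPM), the dehydrogenase, hydrolase and semialdehyde dehydrogenase of valine breakdown, were not called. Levels along both arms were uneven, with Ivd, Hibadh and Aldh6a1 between 47.7 and 51.0 TPM and the carboxylase subunits, Acad8 and Hibch at 15.4 TPM or below.

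In the isoleucine arm 3 of 6 genes were called, all higher in replicate 1. They were Hadha, Hadhb and Acaa2, which also serve fatty acid oxidation; with total counts Hadhb alone of these was called. Hadhb was the most abundant at 192 ± 20.1 TPM and had the largest ratio, −0.18 (exact binomial test, adjusted p = 1.63e-13). Acadsb, the short branched-chain dehydrogenase specific to this arm, measured 62.2 ± 1.65 TPM and was not called. In the propionyl-CoA arm 1 of 8 was called, Pccb, a subunit of propionyl-CoA carboxylase (23.1 and 25.9 TPM, log2 ratio 0.19, and 0.04 and not called with spike-ins). Its partner Pcca measured 18.0 ± 0.31 TPM, Mmut, the vitamin B12-dependent mutase, 29.3 ± 1.99 TPM, and Mmadhc, which handles that vitamin, 47.8 ± 1.05 TPM.

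In the list of transport genes and Bcat1, 3 of 10 tested genes were called with replicate 2 higher, among them the pyruvate carrier subunits Mpc1 and Mpc2, and 1 with replicate 1 higher. Slc25a44, the mitochondrial branched-chain amino acid carrier, measured 9.00 ± 0.40 TPM and was not called. Slc43a1, a plasma membrane transporter of these amino acids, measured 3.31 and 5.05 TPM (log2 ratio 0.64), and Mpc1 was the most abundant of the list at 207.4 ± 9.81 TPM. Of 13 cofactor and assembly genes, 1 was called higher in replicate 2 and 2 in replicate 1. Etfb, a subunit of the electron acceptor of Ivd and Acadsb, led that list at 129 ± 7.47 TPM. Btd, which recycles biotin, had its largest ratio, 0.42, and was not called (exact binomial test, adjusted p = 0.12).

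Single genes of the sister complexes and of the regulators lay far from 0. Pdk4, a kinase of the pyruvate complex, measured 302 TPM in replicate 1 and 76.7 TPM in replicate 2 (log2 ratio −1.92, interval −1.96 to −1.87), against 0.06 for Bckdk. Of the 13 genes of these complexes 3 were called with replicate 2 higher and 4 with replicate 1 higher, and Ogdh led in level at 293 ± 15.3 TPM. Of 10 regulators 2 were called with replicate 2 higher and 5 with replicate 1 higher. Klf15, a factor known to drive genes of branched-chain amino acid breakdown, measured 11.0 and 14.1 TPM (log2 ratio 0.38, interval 0.23 to 0.53). Ppara, a nuclear receptor for fatty acids, measured 8.10 and 5.06 TPM (log2 ratio −1.15), and Esrra led the list at 45.1 ± 2.98 TPM.

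**Figure D4:**
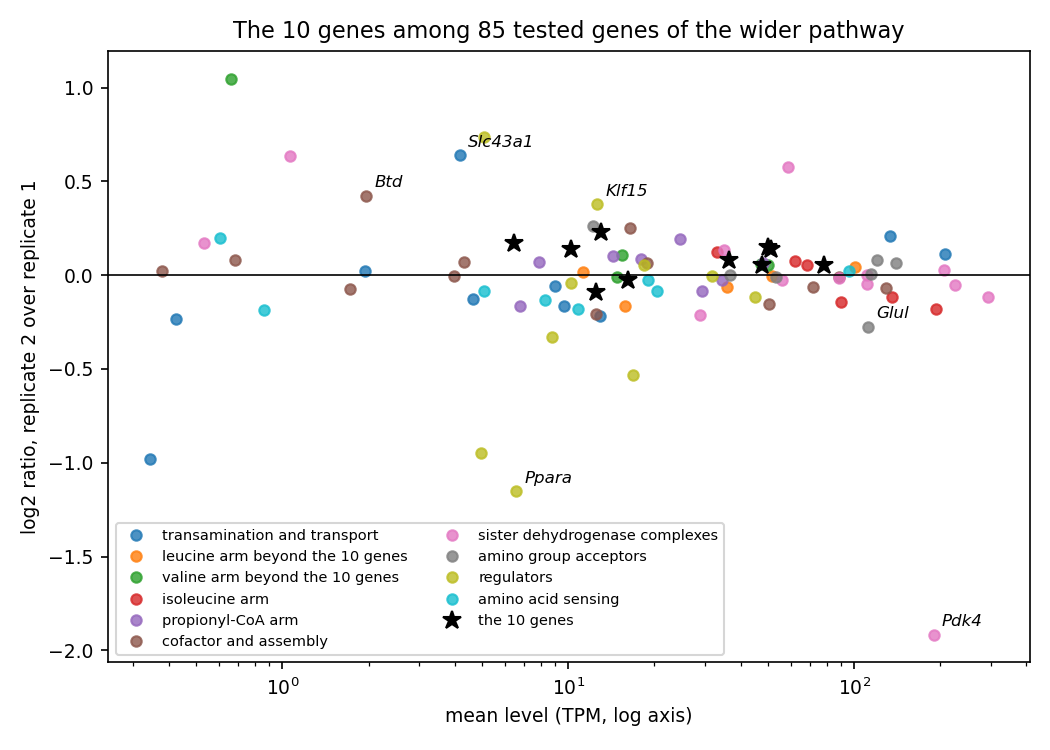
Mean level in TPM (log axis) against the log2 ratio of replicate 2 over replicate 1 for the 85 tested genes of the wider pathway (coloured by list) and the 10 genes (stars). The stars lie between −0.09 and 0.23, while Pdk4 lies at −1.92 and Ppara at −1.15.

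RefSeq promoter windows of 300 bases (250 before and 50 after the start, GRCm38.p6) were found for 9 of the 10 genes, 11 windows in all. None was found for Dbt. Each motif was searched on both strands. CCAAT occurred in 8 of 11 windows (Ivd, Mccc1, Hibadh, Ppm1k, Bckdk, Mccc2 and both of Bckdhb), and in 37.4% of 32851 promoters; in Mccc2, matches on opposite strands overlapped. CCACCC occurred in 4 (Ivd, Mccc1, the upstream window of Bcat2 and that of Bckdhb; 31.5% of all). CACGTG (Mccc2; 7.15% of all) and TATAAA (Bckdk; 13.6% of all) occurred in 1 each. The estrogen-related receptor half-site AAGGTCA (4.72% of all) was in none. A match is a description of these letters only.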

How the data were processed

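Total RNA (300 ng, spike-ins added, ribosomal RNA reduced, directional kit, per the labels) was measured in 2 libraries. The authors deposited estimated counts and TPM per gene and transcript, the percent of each transcript in its gene, and bounds of TPM whose level is not stated, under RSEM column names per the file headers. A second transcript table has kallisto column names. Both used mm10 with GENCODE M21 per the deposited README; aligner, versions and strand setting are not given in the sources used here.

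Counts were rounded. Libraries were scaled over annotated genes, without spike-ins, by edgeR 4.0.16 (R 4.3.3), and 26345 entries that are not genes stayed out. Genes averaging at least 10 counts were tested by an exact binomial test (scipy 1.17.1) that compares 2 libraries, with a prior of 1 count in log2 ratios. The test was checked on simulated counts that held counting error only. That check does not cover the wider spread between these libraries. The floor of 3 counts was 0.0815 and 0.0795 CPM. Scaling by DESeq2 1.42.0, total counts or spike-ins was tried, as were other minimums and priors, assumed variation and the second quantification. The members, the gene lists and the rule for named genes (all members, fixed pathway genes, and each list's highest level and largest ratio at 100 or more mean counts) were chosen with earlier results of these data known. A result that the rule takes is not reported here.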

Additional observations from a re-analysis of the deposited data

How the results depend on the processing

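DESeq2 size factors, the second quantification, no count minimum, a minimum mean of 100 counts and a prior of 5 kept all 10 ratios on their side of 0 and of the threshold. Scaling set the rest. Total counts called 8 genes, all higher in replicate 2, beside 30.9% of all tested genes. They put 5 at an absolute log2 ratio of 0.25 or more, and turned Bckdhb to 0.086 and Mccc1 to 0.024. Spike-ins called 2 genes, both higher in replicate 1, beside 35.6% of all tested genes. They turned Bckdha to −0.0021, Ivd to −0.0078, Dbt to −0.013, Bcat2 to −0.070, Bckdk to −0.094 and Hibadh to −0.098. An assumed biological variation of 0.1 called 0, beside 2.06% of all tested genes. Called genes of the 10 pathway lists went from 31 to 47 with total counts and 53 with spike-ins. The share of all tested genes called went from 21.6% to 30.9% and 35.6%. The median level of the 10 genes went from 26.4 TPM to 60.7 when rescaled to nuclear protein-coding genes, 20.7 in the second quantification and 17.8 over coding transcripts; leaving out each animal gave 26.3 to 26.4. The kinase to phosphatase ratio went from 12.2 to 20.3 in the second quantification and 17.2 over coding transcripts, and the median coding share from 84.0% to 96.8% in the second quantification. Beyond the scaling or the transcripts counted, the cause was not tested. Of 45 pairs of levels, 44 kept their order in the second quantification and in each animal. Over coding transcripts Ivd (22.1 TPM) fell below Bckdha (50.04 TPM), Hibadh (47.25 TPM) and Bcat2 (29.9 TPM). Mccc1 (8.505 TPM) fell below Dbt (8.635 TPM) there. No paired analysis was possible because there is 1 group. With 2 libraries, no ratio has a replicate check.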

Other observations

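Genes that receive or store the amino groups from transamination were among the more abundant of the wider pathway. Got2, the mitochondrial aspartate aminotransferase, measured 139.7 ± 1.37 TPM and Gpt2, a mitochondrial alanine aminotransferase named here after its value was seen, 114.5 ± 5.42 TPM, each above Bckdk. Of the 7 genes, 3 were called with replicate 2 higher and 1 with replicate 1 higher; total counts gave 6 and 1, and spike-ins 0 and 6. The gene higher in replicate 1 was Glul, glutamine synthetase, with 121.5 and 101.6 TPM and a log2 ratio of −0.27.

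Of 8 amino acid sensing genes, 1 was called higher in replicate 1 and none higher in replicate 2 (5 and 0 with spike-ins, 0 and 1 with total counts). Rragd, a small GTPase that recruits mTORC1 to lysosomes, led the list at 96.1 ± 0.29 TPM, above its paralog Rragc at 10.8 ± 0.60 TPM. Among sensing genes averaging 100 or more counts, Rragc had the largest ratio, −0.18, and was not called (exact binomial test, adjusted p = 0.077).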
